A study of Homo sapiens with 36 samples.

Results

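The comparison described here is docosahexaenoic acid (DHA) alone against vehicle control (Ctrl) after 6 h, which takes 6 of the 36 RNA-seq samples of the series. Its members were chosen by their labels, DHA replicates 1 to 3 against Ctrl replicates 1 to 3, and the replicate number entered the test as a pairing factor. All samples were HepG2 cells, an established human hepatoma line that keeps many hepatocyte functions and serves as a liver cell model. DHA is a long-chain n-3 polyunsaturated fatty acid and was given at 50 µM as a complex with albumin in serum-free medium, while Ctrl cells got albumin, ethanol and dimethyl sulfoxide without it. The other groups of 6 h, used for the spread and for side-by-side values, got propionate (PRO, a short-chain fatty acid, 70 µM), protocatechuic acid (PCA, a phenolic acid, 20 µM), DHA + PRO or DHA + PCA, and the same 6 groups were also harvested at 24 h. Each sample held RNA pooled from culture wells of 1 experiment, so the 3 replicates stand for 3 experiments on 1 cell line.

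Cells make cholesterol from acetyl-CoA through the mevalonate pathway and then through squalene and lanosterol. The genes of this route and several genes of fatty acid synthesis are transcribed under the sterol regulatory element-binding proteins (SREBPs), membrane-bound factors that are released by cleavage when sterols are scarce, and polyunsaturated fatty acids are known to lower the SREBP-1 form in liver. Metallothioneins, small cysteine-rich proteins that bind zinc and copper, are transcribed under the zinc-sensing factor MTF1.

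Total counts ran from 5460867 to 10788964 per sample, and the 2 samples of replicate 3, which carry a later series of library numbers, held 5460867 and 5890657 counts. The 15 hepatocyte markers summed to between 62466 and 67637 CPM (counts scaled to library size) in the 6 samples with none at 0. Leukocyte markers summed to 866 to 1238 CPM, nearly all of it LYZ, with CD3E at 0, fibroblast and stromal markers summed to 6.85 to 19.8 CPM, and endothelial markers summed to at most 0.916 CPM with KDR and TEK at 0. In bulk RNA, fewer cells of a kind and less RNA per cell cannot be told apart.

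DHA changed few transcripts at 6 h, and most of them belong to sterol synthesis or to the metallothioneins. Of 11872 genes tested, 18 passed the threshold, an average log2 CPM above 0 with an adjusted p no higher than 0.05 (0.152%), with 12 lower in DHA (0.101%) and 6 higher (0.0505%). The genes that fell include those of enzymes of sterol and fatty acid synthesis, a sterol carrier and 1 transcriptional repressor. The genes that rose encode 5 metallothioneins and 1 aldo-keto reductase. At an unadjusted p under 0.05 there were 828 genes (6.97%). Over all genes tested the log2 fold change had a median of -0.0018 and its size one of 0.115. The libraries of the 2 groups did not overlap for 17 of the 18 genes, against 9.02% of all genes tested. All 18 had the same direction in the 3 replicate pairs. The 18 were chosen by the paired test on these same libraries. Both counts therefore largely follow from that choice and add no separate support. Without the replicate block only 2 genes passed, HMGCS1 among them, and 337 had an unadjusted p under 0.05. The member nearest the threshold inside was AKR1C2 (adjusted p = 0.0493) and the nearest outside was ACSL3 (adjusted p = 0.0604).

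**Figure D1:**
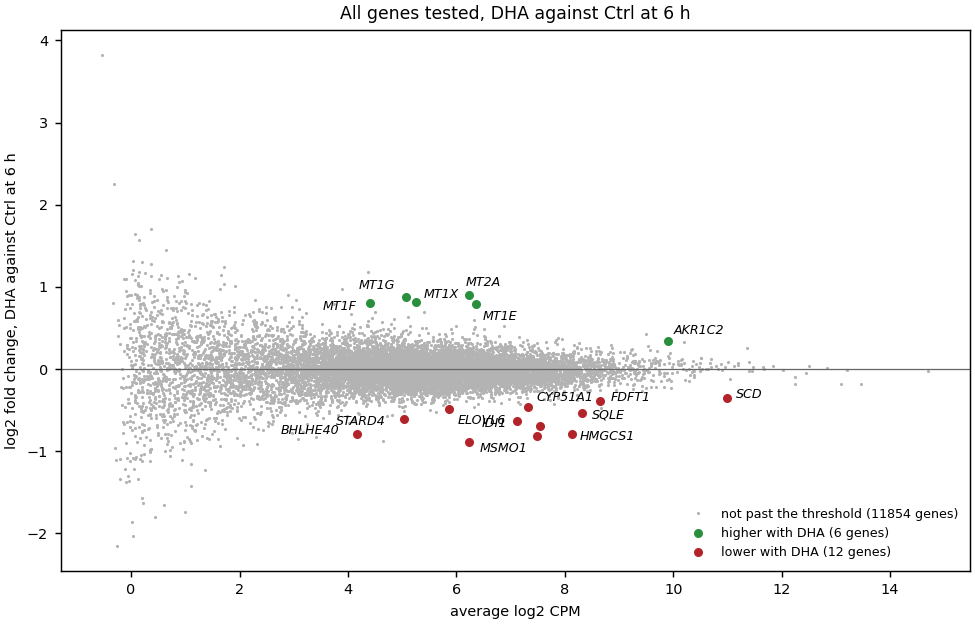
Log2 fold change of DHA against Ctrl at 6 h (y axis) by average log2 CPM (x axis) for the 11872 genes tested, 1 point a gene. The 12 genes lower and the 6 genes higher with DHA are coloured, 16 of them are named, and the metallothionein points lie between 0.79 and 0.90.

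HMGCS1 (NM_001098272, chr5:43287572-43313614, minus strand, hg19 as all positions here) encodes the cytosolic synthase that makes HMG-CoA at the head of the mevalonate pathway. Its level was 374, 372 and 346 CPM in Ctrl replicates 1, 2 and 3 and 202, 219 and 209.6 CPM with DHA. Every DHA library lay below every Ctrl library, and the 3 values within a group were close together. The gene had the smallest p of all (log2 fold change -0.79 ± 0.0856 (SE), adjusted p = 4.31e-05), and DHA cells held 0.577 of the Ctrl level. IDI1 (chr10:1085964-1095061, minus strand), whose product interconverts the isoprene units of the pathway, had 185, 181 and 162 CPM in Ctrl and 133, 104 and 105 CPM with DHA. Replicate 1 was the highest library in both groups, and the groups did not overlap (log2 fold change -0.63 ± 0.0949 (SE), adjusted p = 0.00158). In all, 3 of the 9 mevalonate pathway genes fell and none rose, 8 of the 9 had a negative fold change, and the median was -0.34. MVK (log2 fold change -0.45 ± 0.163 (SE), adjusted p = 0.701), the mevalonate kinase, and MVD (log2 fold change -0.34 ± 0.147 (SE), adjusted p = 0.701), the decarboxylase, did not pass the threshold. PMVK, between them in the route, had the list's 1 positive value (0.14 ± 0.209).

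Of the later steps, from squalene to cholesterol, 4 genes fell. MSMO1 (chr4:166248818-166264314, plus strand), the sterol C4-methyl oxidase, had 249, 217 and 214 CPM in Ctrl and 137, 127 and 123 CPM with DHA. All DHA libraries lay well below the lowest Ctrl library (log2 fold change -0.81 ± 0.0902 (SE), adjusted p = 4.31e-05). SQLE, the squalene epoxidase that catalyses a rate-controlling step, had 407, 381 and 371 CPM in Ctrl and 267, 271 and 264 CPM with DHA. The 3 DHA libraries were nearly equal and all under the Ctrl range (log2 fold change -0.53 ± 0.0733 (SE), adjusted p = 0.000642). FDFT1, the squalene synthase at the branch to sterols, had 489.5, 412 and 453 CPM in Ctrl and 386, 301 and 350.0 CPM with DHA. Replicate 1 was the highest and replicate 2 the lowest in both groups, and each pair fell (log2 fold change -0.39 ± 0.0703 (SE), adjusted p = 0.0159). CYP51A1 (chr7:91741463-91764059, minus strand), the lanosterol demethylase, had 204, 169 and 188 CPM in Ctrl and 163, 127 and 121 CPM with DHA. DHA replicate 1 came near the lowest Ctrl library without reaching it (log2 fold change -0.46 ± 0.0859 (SE), adjusted p = 0.0191).

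Of the 13 genes from squalene to cholesterol, these 4 passed, all 13 had a negative fold change and the median was -0.39, whereas 50.4% of all genes had a negative value. EBP, a sterol isomerase, was at -0.034 ± 0.0856. LSS, the lanosterol synthase, and SC5D, a sterol desaturase, had values of -0.50 (adjusted p = 0.433) and -0.42 (adjusted p = 0.239).

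**Figure D2:**
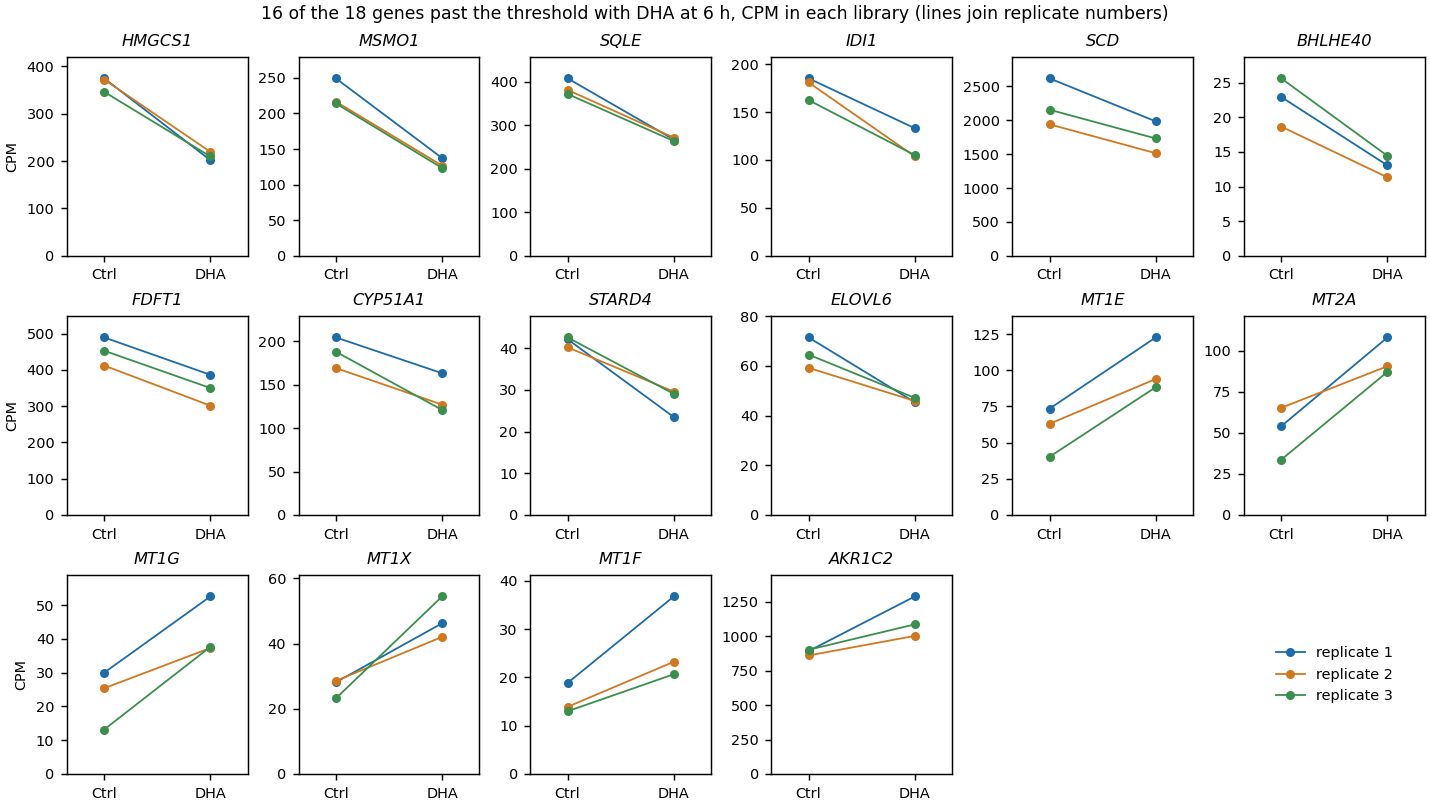
CPM in each library (y axis, from 0) of Ctrl and DHA at 6 h for 16 of the 18 genes past the threshold, 1 panel a gene, with lines joining libraries of the same replicate number. All lines of the first 10 panels slope down and all lines of the last 6 slope up, and only in SCD does a DHA library reach above a Ctrl library.

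Sterol-regulated promoters often hold binding sites of the factor NF-Y beside those of SREBPs, and the sequences upstream of 4 genes that fell are shown for that reason. They are RefSeq promoters of GRCh38.p14 placed in GRCh37 by exact match, cut at the counted transcript's start where they reach it (that of STARD4 ends upstream of it), in lower case with the letters CCAAT or the same letters on the other strand (ATTGG) in capitals.
HMGCS1, chr5:43313615-43313764, minus strand: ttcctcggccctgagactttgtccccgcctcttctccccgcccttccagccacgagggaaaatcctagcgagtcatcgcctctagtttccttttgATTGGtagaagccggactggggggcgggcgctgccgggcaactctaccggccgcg
MSMO1, chr4:166248571-166248817, plus strand: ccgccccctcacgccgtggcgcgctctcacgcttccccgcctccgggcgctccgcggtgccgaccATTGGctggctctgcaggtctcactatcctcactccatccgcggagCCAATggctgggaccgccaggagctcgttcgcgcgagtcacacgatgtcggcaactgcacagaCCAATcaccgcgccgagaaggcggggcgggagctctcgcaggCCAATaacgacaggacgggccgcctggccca
IDI1, chr10:1095062-1095309, minus strand: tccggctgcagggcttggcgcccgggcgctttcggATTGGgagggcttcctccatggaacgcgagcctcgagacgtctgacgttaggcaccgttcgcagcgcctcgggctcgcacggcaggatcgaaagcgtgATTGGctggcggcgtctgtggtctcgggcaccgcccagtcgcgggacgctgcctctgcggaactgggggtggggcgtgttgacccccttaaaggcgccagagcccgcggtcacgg
STARD4, chr5:110848234-110848483, minus strand: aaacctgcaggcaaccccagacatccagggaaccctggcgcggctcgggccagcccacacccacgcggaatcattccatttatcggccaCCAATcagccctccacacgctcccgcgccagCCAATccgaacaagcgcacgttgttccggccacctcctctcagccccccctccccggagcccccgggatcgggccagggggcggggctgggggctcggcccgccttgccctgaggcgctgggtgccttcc

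The capitals mark 1 match in the 150 bases of HMGCS1, 4 in the 247 of MSMO1, 2 in the 248 of IDI1 and 2 in the 250 of STARD4. Promoters were matched for 11 of the 18 genes, with 14 promoters among them, and for 9169 of the 11872 genes tested, with 13374. In the 250 bases before the start, CCAAT stood on either strand in 8 of the 14 (57.1%), against 33.3% of the 13374. The 8 include those of MT1X and AKR1C2, which rose, while the promoters of CYP51A1, ELOVL6, BHLHE40 and MT2A, 1 of the 2 of HMGCS1 and 1 of the 3 of IDI1 held none. GGGCGG, the Sp1 box, stood in 13 of the 14 (92.9%), against 63.2%. The sterol regulatory element letters TCACNCCAC stood in 0 of the 14, against 0.905% of all, and the PPAR/RXR direct repeat in 0, against 0.0224%. The E-box CACGTG stood in 1 (7.14%), that of BHLHE40, against 8.21%. These are counts of letters in a short window and were not tested.

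Genes of sterol traffic fell in part. STARD4 (chr5:110834022-110848157, minus strand), a soluble sterol carrier, had 42.2, 40.2 and 42.6 CPM in Ctrl and 23.5, 29.6 and 29.1 CPM with DHA. The Ctrl libraries were within a narrow range and all DHA libraries lay below it (log2 fold change -0.61 ± 0.116 (SE), adjusted p = 0.0209). Of the 13 genes of the list 2 passed, and its median was -0.17. NPC1, which exports sterol from lysosomes, was at -0.22 ± 0.0954 (adjusted p = 0.701), and SOAT1 and SOAT2, which esterify cholesterol, were at -0.12 and -0.042.

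The transcripts of the SREBPs themselves did not pass. SREBF1 had 85.2, 90.9 and 78.6 CPM in Ctrl and 63.6, 59.1 and 63.2 CPM with DHA. The groups did not overlap (log2 fold change -0.46 ± 0.117 (SE), adjusted p = 0.239). SREBF2 had 216, 209 and 238 CPM in Ctrl and 169.8, 195 and 238 CPM with DHA, and its replicate 3 libraries were nearly equal (log2 fold change -0.15 ± 0.0877 (SE), adjusted p = 0.714). None of the 8 tested genes of the SREBP machinery passed, with a median of -0.033, and INSIG1, which retains the SREBP complex in the endoplasmic reticulum, was not tested since it had at most 2 counts in a library.

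In fatty acid synthesis, both genes that fell encode enzymes that modify the chain. SCD (chr10:102106772-102124588, plus strand), the stearoyl-CoA desaturase that makes oleate, had 2617, 1939.2 and 2155 CPM in Ctrl and 1983, 1514 and 1731 CPM with DHA. The groups overlapped, since DHA replicate 1 exceeded Ctrl replicate 2, but the DHA library was the lower in each replicate pair (log2 fold change -0.36 ± 0.0637 (SE), adjusted p = 0.0154). ELOVL6 (chr4:110970229-111119820, minus strand), the elongase of palmitate, had 71.5, 59.3 and 64.6 CPM in Ctrl and 45.4, 45.9 and 47.2 CPM with DHA. The DHA libraries were nearly equal and all below Ctrl (log2 fold change -0.49 ± 0.0977 (SE), adjusted p = 0.033). They were 2 of the 10 desaturase and elongase genes tested, whose median was -0.15. FADS1 and FADS2, the desaturases that make long-chain polyunsaturated fatty acids, were at -0.23 ± 0.0765 and -0.13 ± 0.103 (adjusted p = 0.65 and 0.762).

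None of the 9 genes of de novo lipogenesis passed, and their median was -0.25. ACACA, the acetyl-CoA carboxylase that commits carbon to fatty acids, had 127, 112 and 137 CPM in Ctrl and 80.8, 96.1 and 106 CPM with DHA. The groups did not overlap, and the result lay just outside the threshold (log2 fold change -0.42 ± 0.0899 (SE), adjusted p = 0.0733). ACLY, which makes cytosolic acetyl-CoA from citrate, had 429, 423 and 443 CPM in Ctrl and 367, 348 and 376 CPM with DHA. Its groups did not overlap either (log2 fold change -0.25 ± 0.0672 (SE), adjusted p = 0.358). ACSS2, the acetyl-CoA synthetase, was at -0.30 ± 0.0811 (adjusted p = 0.383) with overlapping groups. FASN, the fatty acid synthase, had 777, 1026 and 850.4 CPM in Ctrl and 723, 852 and 846 CPM with DHA. Replicate 2 was the highest library of each group, and the replicate 3 libraries were nearly equal (log2 fold change -0.14 ± 0.115 (SE), adjusted p = 0.776).

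**Figure D3:**
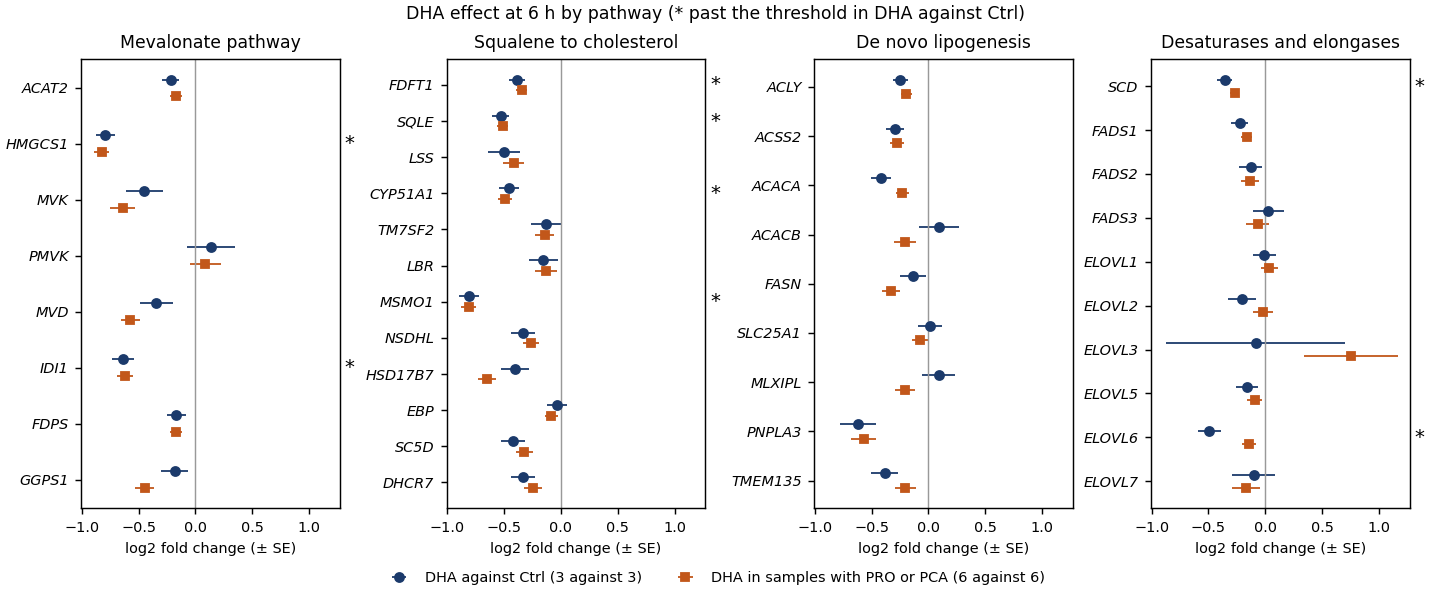
Log2 fold change ± SE (x axis) of genes of 4 lists with DHA alone against Ctrl (circles, 3 against 3 samples) and with DHA in the samples that also got PRO or PCA (squares, 6 against 6), at 6 h. Nearly all points of the sterol panels lie left of 0 in both, with HMGCS1 and MSMO1 farthest, and asterisks mark genes past the threshold with DHA alone.

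BHLHE40 (chr3:5021097-5026865, plus strand), a basic helix-loop-helix repressor of the clock, was the called gene that encodes a transcription factor. It had 22.9, 18.7 and 25.6 CPM in Ctrl and 13.1, 11.3 and 14.4 CPM with DHA. Replicate 3 was the highest in both groups and the groups did not overlap (log2 fold change -0.79 ± 0.142 (SE), adjusted p = 0.0159).

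The rises were led by metallothioneins, which lie together on chromosome 16. MT1E (chr16:56659585-56661024, plus strand) had 73.5, 63.0 and 40.2 CPM in Ctrl and 123, 94.0 and 88.3 CPM with DHA. Ctrl replicate 3 was the lowest library, and all DHA libraries lay above Ctrl (log2 fold change 0.79 ± 0.117 (SE), adjusted p = 0.00155). MT2A (chr16:56642478-56643409, plus strand), the most widely expressed family member, had 54.0, 65.1 and 33.6 CPM in Ctrl and 108, 90.5 and 87.0 CPM with DHA. Again Ctrl replicate 3 was far below the other two, and the groups did not overlap (log2 fold change 0.90 ± 0.147 (SE), adjusted p = 0.00494). MT1G (chr16:56700647-56701977, minus strand) had 29.996, 25.4 and 13.2 CPM in Ctrl and 52.6, 37.3 and 37.7 CPM with DHA, with the same low Ctrl library (log2 fold change 0.88 ± 0.163 (SE), adjusted p = 0.0174). MT1X (chr16:56716382-56718108, plus strand) had 28.1, 28.6 and 23.2 CPM in Ctrl and 46.2, 42.1 and 54.5 CPM with DHA. Here replicate 3 was the lowest in Ctrl and the highest with DHA (log2 fold change 0.82 ± 0.154 (SE), adjusted p = 0.0191). MT1F (chr16:56691855-56693215, plus strand) had 18.9, 13.9 and 12.99 CPM in Ctrl and 36.8, 23.2 and 20.7 CPM with DHA, and replicate 1 was the highest in both groups (log2 fold change 0.81 ± 0.152 (SE), adjusted p = 0.0191). These 5 of the 9 genes of the list rose and none fell, and the list's median was 0.79. MT1A had about 1 CPM (0.28 ± 0.471), MT1H and MT1M had too few counts to be tested, and SLC30A1, the zinc exporter under MTF1, was at 0.23 ± 0.105 (adjusted p = 0.701). Metallothionein genes are near-identical copies, so reads may be split among them and the 5 values are not independent.

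Upstream of MT2A and MT1X the letters of the metal response element core, to which MTF1 binds, recur, and those sequences are shown with the cores TGCACNC or TGCGCNC, on either strand, in capitals.
MT2A, chr16:56642246-56642477, plus strand: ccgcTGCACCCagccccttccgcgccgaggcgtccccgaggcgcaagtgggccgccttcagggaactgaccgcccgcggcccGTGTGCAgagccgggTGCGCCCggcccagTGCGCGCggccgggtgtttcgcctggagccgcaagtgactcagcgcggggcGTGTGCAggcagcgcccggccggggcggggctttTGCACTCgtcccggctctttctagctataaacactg
MT1X, chr16:56716132-56716381, plus strand: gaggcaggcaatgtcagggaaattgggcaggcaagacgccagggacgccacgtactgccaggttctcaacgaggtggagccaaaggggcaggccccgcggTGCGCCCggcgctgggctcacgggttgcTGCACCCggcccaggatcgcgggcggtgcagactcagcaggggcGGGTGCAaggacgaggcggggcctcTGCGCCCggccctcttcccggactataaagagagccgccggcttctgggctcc

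The capitals mark 6 cores in the 232 bases of MT2A and 4 in the 250 of MT1X. At least 1 core stood in 4 of the 14 promoters (28.6%), those of IDI1 and ELOVL6 included, against 31.4% of all 13374 promoters.

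**Figure D4:**
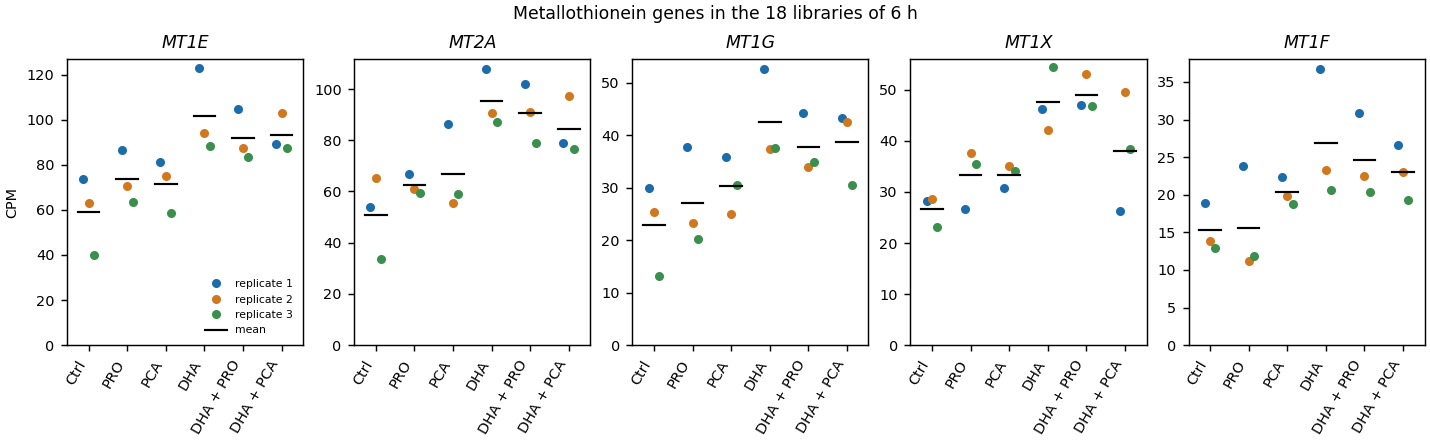
CPM (y axis, from 0) of 5 metallothionein genes in each of the 18 libraries of 6 h, coloured by replicate number, with the mean of each group as a bar. The Ctrl mean is the lowest and the means of the 3 groups with DHA are above those of Ctrl, PRO and PCA in each panel.

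For MT1E and MT2A the means with PRO or PCA alone lay between those of Ctrl and DHA, though neither gene passed the test of PRO or PCA against Ctrl. For MT1E the means were 58.9 ± 17.02 CPM in Ctrl, 73.6 ± 11.8 with PRO and 71.7 ± 11.6 with PCA, against 102 ± 18.5 for DHA alone, 91.8 ± 11.3 after DHA + PRO and 93.1 ± 8.43 after DHA + PCA (SD, n = 3 each). For MT2A they were 50.9 ± 15.996, 62.4 ± 3.89 and 67.0 ± 16.8 CPM without DHA and 95.1 ± 11.2, 90.6 ± 11.4 and 84.4 ± 11.3 with it, in the same order. PRO and PCA alone changed 0 genes against Ctrl in the edgeR test (563 and 217 at an unadjusted p under 0.05). With the low Ctrl replicate 3 left out, MT1E was at 0.66 (adjusted p = 0.0179) and MT2A at 0.74 (adjusted p = 0.0603).

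AKR1C2 (chr10:5029968-5060225, minus strand), an aldo-keto reductase of steroids and a target of the antioxidant factor NRF2, had 893, 861 and 902 CPM in Ctrl and 1289.6, 1003 and 1087 CPM with DHA. DHA replicate 1 was the highest and the groups did not overlap (log2 fold change 0.34 ± 0.0708 (SE), adjusted p = 0.0493). It was the 1 gene of 21 in the NRF2 list that passed, the list's median was 0.16, and 10 of the 21 were higher at an unadjusted p under 0.05, against 3.48% of all genes. AKR1C1 (0.34 ± 0.0826, adjusted p = 0.201) and AKR1C3 (0.25 ± 0.0757, adjusted p = 0.589) share long stretches of sequence with AKR1C2, and reads may be assigned to the wrong copy. OSGIN1, an oxidative stress-induced growth inhibitor, had 38.0, 33.1 and 28.7 CPM in Ctrl and 62.7, 47.2 and 53.7 CPM with DHA. Its groups did not overlap (log2 fold change 0.69 ± 0.167 (SE), adjusted p = 0.17). AKR1B10, a reductase of aldehydes, SQSTM1, the autophagy receptor p62, and SRXN1, which reduces peroxiredoxins, were at 0.38, 0.36 and 0.36 (adjusted p = 0.17, 0.17 and 0.252). NQO1 and HMOX1, further NRF2 targets, were at 0.11 ± 0.0669 and 0.16 ± 0.114.

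Lists for other known routes of fatty acid action held no gene that passed. Of 21 PPAR targets and fatty acid oxidation genes none passed (median -0.024), and CPT1A, the gatekeeper of mitochondrial import, was at 0.41 ± 0.175 (adjusted p = 0.701) with 11.1 ± 4.15 CPM in Ctrl and 14.7 ± 5.87 with DHA (SD, n = 3). SLC25A20, the carnitine carrier, was at 0.51 ± 0.153 (adjusted p = 0.553) without overlap of the groups. PDK4 and FGF21, often used as PPAR readouts, had at most 2 counts in a library and were not tested. Of 15 lipid droplet genes none passed (median 0.15), with PLIN2, a droplet coat protein, at 0.20 ± 0.0817 (adjusted p = 0.701) and LPIN1, a phosphatidate phosphatase, at -0.40 ± 0.114 (adjusted p = 0.439). Of 13 genes of fatty acid uptake and activation none passed (median -0.061), and ACSL3, an acyl-CoA synthetase, had 258, 242 and 253 CPM in Ctrl and 184, 186 and 189 CPM with DHA, with no overlap (log2 fold change -0.43 ± 0.0901 (SE), adjusted p = 0.0604). None passed among 9 LXR genes (median -0.041), 19 genes of the ATF4 and ER stress response (0.017), 15 immediate early genes (0.13), 8 bile acid genes (-0.14), 12 apolipoprotein and assembly genes (0.043), 9 genes of gluconeogenesis and glycogen (-0.12), 26 of DNA replication (0.033) and 20 of mitosis (-0.026).

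Among the genes next in p outside the threshold, CCL20, a chemokine, had 37.4, 29.9 and 31.5 CPM in Ctrl and 16.7, 19.8 and 16.998 CPM with DHA (log2 fold change -0.88 ± 0.199 (SE), adjusted p = 0.115). CEBPD, a transcription factor of the acute phase response, had 8.82, 12.2 and 6.93 CPM in Ctrl and 22.5, 14.7 and 19.7 CPM with DHA (log2 fold change 0.97 ± 0.238 (SE), adjusted p = 0.196). The groups did not overlap for either gene. CEBPD means were 9.33 ± 2.69 CPM in Ctrl, 14.7 ± 5.05 with PRO and 14.98 ± 3.09 with PCA at 6 h. They were 14.8 ± 3.35 after DHA + PRO and 14.9 ± 3.62 after DHA + PCA (SD, n = 3 each). PRO and PCA against Ctrl were at 0.55 ± 0.243 and 0.61 ± 0.241 for CEBPD, and neither passed. A rise of CEBPD with DHA was not seen in 2 other settings. With DHA on top of PRO or PCA at 6 h CEBPD was at 0.017 ± 0.142, and at 24 h DHA against Ctrl was at -0.17 ± 0.263. CCL20 was at -0.42 ± 0.157 and -0.17 ± 0.182 in these 2 settings, and neither gene passed in either. LIPG, the endothelial lipase, was at -0.85 ± 0.183 and CFAP44, a ciliary protein, at -0.83 ± 0.183 (adjusted p = 0.0733 and 0.0853), and UNKL was at 0.50 ± 0.120 (adjusted p = 0.17).

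Whether the same genes moved when DHA was given on top of PRO or PCA was read in the other 12 samples of 6 h. Replicate 2 of DHA + PRO carries a number of the later library series, unlike replicate 2 of the other groups. The replicate block thus does not balance the library series among the 12 samples. The 12 samples lie outside the contrast of DHA and Ctrl, but they entered the fit that chose the 18 genes through its estimate of the spread and its replicate terms, so they are not wholly independent of that choice. In a fit of those samples alone, 20 of 11762 genes passed (0.17%), 2 higher (0.017%) and 18 lower (0.153%). The 18 genes all had the same direction there with an unadjusted p under 0.05, against 3.93% of all genes, and 12 of the 18 passed the threshold (66.7% of the 18 and 60% of the 20). HMGCS1 was at -0.83 ± 0.0636, MSMO1 at -0.81 ± 0.0660, STARD4 at -0.65 ± 0.0810 and BHLHE40 at -0.78 ± 0.107 (adjusted p = 1.1e-05, 1.21e-05, 0.00082 and 0.0021). AKR1C2 rose again (0.33 ± 0.0448, adjusted p = 0.0021). SREBF1 fell there (-0.72 ± 0.0826, adjusted p = 0.000397), as did MVK (-0.64), MVD (-0.57) and HSD17B7 (-0.65) of sterol synthesis. The SREBF1 means were 106 ± 11.3 CPM with PRO and 101 ± 17.2 with PCA, against 84.9 ± 6.15 in Ctrl (SD, n = 3 each). With DHA alone, DHA + PRO and DHA + PCA they were close, at 62.0, 63.0 and 62.7 CPM.

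The 6 of the 18 that did not pass there were the 5 metallothioneins and ELOVL6. MT1E was at 0.36 ± 0.0733, MT2A at 0.44 ± 0.0914, MT1G at 0.42, MT1X at 0.38 and MT1F at 0.43 (adjusted p = 0.0799, 0.0799, 0.245, 0.276 and 0.431), and ELOVL6 at -0.14 ± 0.0629 (adjusted p = 0.999). The difference between the 2 settings was itself tested over all genes by edgeR and passed for 0. It had an unadjusted p under 0.05 for 397 of 11872 genes and for 5 of the 18. These 5 were MT1E, MT2A, MT1G, MT1X and ELOVL6, each with the smaller effect in the samples with PRO or PCA. The 18 were chosen by the test of DHA alone, so this count is not independent of that choice. For MT1E the difference was -0.43 ± 0.143 and for ELOVL6 0.35 ± 0.119. Both had an adjusted p of 0.977, so these genes are not shown to respond differently. DHA + PRO and DHA + PCA against DHA alone each changed 0 genes (448 and 389 at an unadjusted p under 0.05).

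At 24 h, in a fit of all 36 samples, DHA against Ctrl changed 63 of 12046 genes (0.523%), 17 higher (0.141%) and 46 lower (0.382%). Of the 18 genes, 13 were among them (72.2% of the 18 and 20.6% of the 63). In that same fit 24 of the 12046 genes passed at 6 h, 6 higher and 18 lower, with 15 of the 18 among them. At 24 h all 18 kept their direction with an unadjusted p under 0.05, against 7.94% of all genes. SCD was at -0.75 ± 0.0573 at 24 h and AKR1C2 at 0.72 ± 0.0996, while MSMO1 was at -0.37 ± 0.0810 (adjusted p = 8.15e-11, 2.72e-05 and 0.014). The Ctrl levels themselves differed between the times. In this fit the Ctrl means at 6 h and 24 h were 2219 and 4160 CPM for SCD, 878 and 165 for AKR1C2, and 225 and 410 for MSMO1. IDI1, BHLHE40, STARD4, MT2A and MT1X did not pass at 24 h (adjusted p = 0.0645, 0.56, 0.231, 0.544 and 0.344). In the fit of all 36 samples, BHLHE40, MT1X and AKR1C2 did not pass at 6 h (adjusted p = 0.277, 0.0718 and 0.209). IDI1, STARD4 and MT2A did pass at 6 h there (adjusted p = 0.00206, 0.00808 and 0.00104). In the edgeR test of the difference between the times, 5 of the 18 had an unadjusted p under 0.05, against 611 of 12046 genes. SCD, FDFT1 and AKR1C2 were farther from 0 at 24 h, and MSMO1 and MT2A nearer to it. The difference of the 2 times, tested over all 36 samples, passed for none of the 18, and was nearest for SCD (-0.40 ± 0.0806, adjusted p = 0.0528). It passed for 3 other genes of the 12046 (0.0249%, with 0.0083% higher and 0.0166% lower), ACSS2, FST and SPP1, whose 6 h values were -0.30, 0.057 and -0.0025 and whose 24 h values were -0.87, -0.76 and 0.60.

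**Figure D5:**
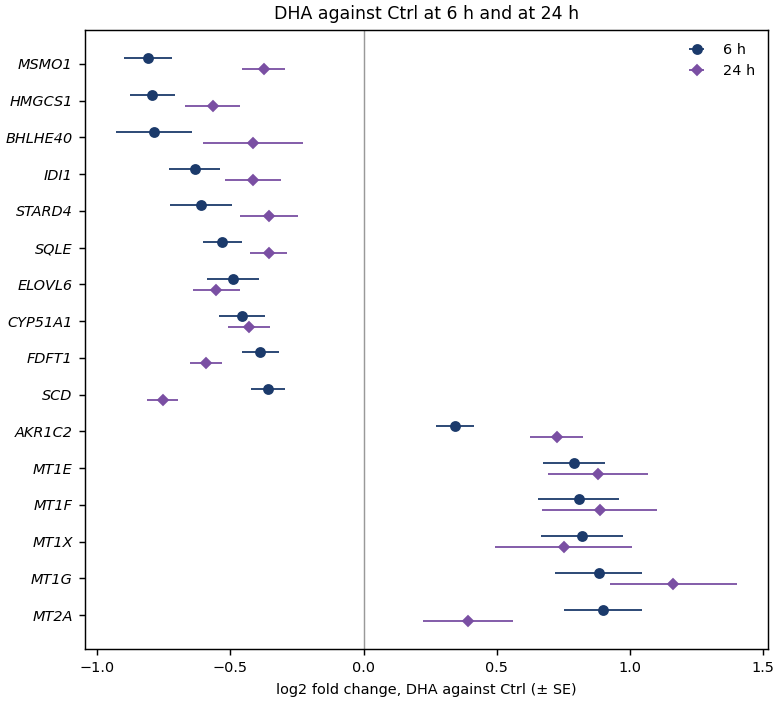
Log2 fold change ± SE of DHA against Ctrl (x axis) at 6 h (circles) and at 24 h (diamonds) for 16 of the 18 genes past the threshold at 6 h. The 6 h values come from the fit of the 18 samples of 6 h, and the 24 h values from the fit of all 36 samples. Each gene lies on the same side of 0 at both times, with SCD and AKR1C2 farther from 0 at 24 h and MSMO1 and MT2A nearer to it.

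The GC content of a gene moved with its fold change. Over 11195 genes, which are not independent replicates and share the 6 libraries, Pearson's r was 0.382, and the median log2 fold change went from -0.10 in the fifth of genes with the lowest GC content to 0.13 in the fifth with the highest. The step was -0.15 to 0.19 in replicate pair 1 and -0.14 to 0.21 in pair 3, but -0.029 to 0.023 in pair 2. With an offset for GC content in the fit, 34 genes passed (0.286%), 17 of the 18 among them (94.4%), and STARD4 was lost (log2 fold change -0.47, adjusted p = 0.0702). Genes that passed there included SREBF1 (-0.62, adjusted p = 9.87e-06), ACACA (-0.40, adjusted p = 0.0099), FASN (-0.34, adjusted p = 0.0186) and OSGIN1 (0.53, adjusted p = 0.0108), and HMGCS1 and MSMO1 were both at -0.70. With it, 5 of the 9 mevalonate pathway genes, 6 of the 13 from squalene to cholesterol and 3 of the 9 of de novo lipogenesis passed and were lower, against 0.211% of all genes.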

How the data were processed

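Counts of DHA and Ctrl samples were taken from the deposited table of 36 samples. The deposited table gives, for 18932 RefSeq genes, counts of reads that the authors left without normalization. Per the study's methods, RNA was pooled from replicate cultures of each of 3 experiments, libraries were made with a TruSeq kit that does not mark strand, so that overlapping antisense genes cannot be told apart, and reads were aligned with STAR to hg19 and processed with iRNA-seq (versions not given in the sources used here). The deposited table also holds gene positions and counted lengths (an other unit, not used). Its starts count from 0, and 1 was added.

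Counts were fitted in edgeR 4.0.16 (R 4.3.3): filterByExpr, TMM, the quasi-likelihood F test on the 18 samples of 6 h with the replicate number as block, and Benjamini-Hochberg adjustment over all genes tested. SE is the fold change divided by the square root of F. CPM of single genes are on TMM-scaled totals of the genes tested. The summed CPM of cell type markers are on the total counts without TMM, 5460867 to 10788964 in the 6 samples. Counts are reads, not molecules. Other fits took the 12 samples with PRO or PCA, and all 36 samples with the block within each time. The column headers give same-numbered samples the same culture numbers, and deviations from the group means of Ctrl and DHA correlated at 0.52, 0.11 and 0.53 for replicates 1 to 3 over 10476 genes. No library was a duplicate: over the 15 pairs, chi-square divided by its degrees of freedom was 2.98 or more. DHA replicate 1 stood farthest apart: every pair that held it had 14.9 to 23.5, and no other pair exceeded 14.5. For the GC offset, each library's deviations were smoothed on GC content by a spline (5 degrees of freedom). Motifs were searched on both strands.

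Genes were named if they passed, if the study's text names them for lipid synthesis, if they had the smallest p of a list, or if they were among the 5 rises or 5 falls next in p. Not every gene so chosen has its values printed, 2 genes that passed and 1 that did not are not reported here, and list members given beside these (such as EBP, PMVK, NPC1, FADS1, PLIN2 and NQO1), FST and SPP1 were chosen after their values were seen. The members and lists were chosen with earlier results of these data known. Alternatives were DESeq2 1.42.0 (size factors and Wald test), upper quartile scaling, the likelihood ratio test, other filters, other blocks or samples, and leaving out each sample. The GC offset, the early library series alone and the metal response element were added after seeing the data. Figures used matplotlib 3.10.9 in Python 3.11.15.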

Additional observations from a re-analysis of the deposited data

Results flagged for a closer look

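The DHA effect at 24 h minus that at 6 h passed the test for 3 genes, which is a difference between the 2 times. ACSS2, the acetyl-CoA synthetase, had a difference of -0.58 ± 0.103 on the log2 scale, FST, which encodes follistatin, had -0.83 ± 0.147, and SPP1, which encodes osteopontin, had 0.60 ± 0.103, each with an adjusted p of 0.0114 in edgeR. None of these genes passed at 6 h. Without the replicate block 0 genes passed this test.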

How the results depend on the processing

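The count of 18 genes with DHA alone fell to 2 without the replicate block, to 8 with the library series as the block, and to between 7 (without DHA replicate 1) and 15 (without Ctrl replicate 2) when 1 sample was left out; it was 8 without Ctrl replicate 1 or 3, 11 without DHA replicate 2 and 9 without DHA replicate 3. It rose to 28 by the DESeq2 Wald test, to 30 by the likelihood ratio test and to 66 with no filter on low counts, and the added alternatives gave 34 with the GC offset, 7 with the GC offset and no block, and 7 in the early library series alone. The count was 21 with only the 6 samples compared and 24 in the fit of all 36 samples, each with 15 of the 18 among them. The alternatives drew on the same libraries by which the 18 genes were chosen, so a reversal was unlikely from the start. None of 324 values of the 18 genes over 18 alternatives reversed. HMGCS1 passed in all 18, IDI1, MSMO1 and SQLE in 17, MT1E in 16 and AKR1C2 in 5, and AKR1C2, CYP51A1, FDFT1 and MT1F passed in none of the 6 that left out a sample. With 1 sample left out, FASN ran from -0.23 (without Ctrl replicate 3) to 0.012 (reversed, without Ctrl replicate 2).

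In the samples with PRO or PCA, the count of 20 became 11 without the replicate block, 45 by the Wald test, 43 with no filter, 60 with the GC offset and 2 to 433 without 1 replicate (433 without replicate 1, 15 without replicate 2, 2 without replicate 3). The count of 3 for 24 h against 6 h became 0 without the block, 6 with no filter and 1 to 3 without 1 sample, with 1 without Ctrl replicate 1 or 2. Why these counts moved was not tested. The smallest change called at 6 h was one of 0.34 on the log2 scale. Genes with few counts, such as INSIG1, PDK4 and FGF21, were not tested, and why their counts were low was not examined.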
